A study of Homo sapiens with 21 samples.

Results

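Aldo-keto reductases and aldehyde dehydrogenases, represented by 10 genes, were examined in parental cancer cell lines and in the drug-resistant cell lines derived from them. The genes were picked by symbol (AKR1B1, AKR1B10, AKR1C1, AKR1C2, AKR1C3, ALDH1A1, ALDH1A2, ALDH1A3, ALDH3A1 and ALDH2), and all 10 were found by Ensembl identifier among the 53515 genes of the count files. Aldo-keto reductases use NADPH to reduce aldehydes and ketones to alcohols, whereas aldehyde dehydrogenases use NAD or NADP to oxidise aldehydes to acids. Both families clear reactive aldehydes that arise from lipid peroxidation, alcohol and drugs, and both act on retinal and on other signalling compounds. Liver is rich in several of them, and aldehyde dehydrogenase activity is widely used as a marker of stem-like cancer cells.

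The study sequenced RNA from 7 parental and 10 resistant cell lines in 21 libraries. The parental cell line HepG2 (liver) gave the sorafenib-resistant cell lines HepG2S1 and HepG2S3, and PancVB (pancreas) gave PancB1Q and PancB1V, which resist 5-fluorouracil. From the lung line HCC4006, the stock HCC4006P1 gave the erlotinib-resistant HCC4006ER and the stock HCC4006P2 the gefitinib-resistant HCC4006GR, and a second lung line, HCC827P, gave the gefitinib-resistant HCC827GR. The ovarian line UWB1.289 gave U10 and U100, which resist olaparib, and the ovarian line IGROV-1 gave the cisplatin-resistant IGROV-1/CDDP. Resistance was bred in culture with drug doses that were raised over time, so that each resistant cell line is 1 selected population, and cell lines from 1 parent share its libraries. Of the 17 cell lines, 13 had 1 library, and HepG2, HepG2S3, HCC4006P1 and HCC4006ER had 2, so that most pairs were described and not tested. Nothing in the labels says that the 2 libraries came from separate cultures, and p-values then measure only the spread between libraries.

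The libraries held between 9851195 and 36639473 counts on genes, and the count of a gene was divided by that total to give CPM, a level relative to all counted reads of the library. A level of 3 counts, taken as the detection floor, corresponded to between 0.0819 and 0.305 CPM, depending on the library. In replicate 1 of HCC4006P1, all 1679 genes past a point of chromosome 7 that had at least 50 counts in replicate 2 were at 0, and AKR1B1, AKR1B10 and ALDH1A1 lie in that stretch, so that their HCC4006P1 level is that of replicate 2 alone. The stretch held 18.1% of the counts of replicate 2, which raises the CPM of every other gene in replicate 1. Tissue markers were present in some of the labelled cell lines and near absent in others. The summed level of 6 liver markers was 29600 CPM in HepG2 but 26.9 CPM in HepG2S3, and none of the 6 reached 1 CPM in HepG2S1. ALB was 12183 CPM in HepG2, 9.17 CPM in HepG2S3 and 0 in HepG2S1. The summed level of 5 lung markers was 3348 CPM in HCC4006P2 but 0.450 CPM in HCC4006P1 and 0.586 CPM in HCC4006ER, although both stocks carry the name of 1 cell line. Lung markers reached 639 CPM in a cell line of another tissue, IGROV-1/CDDP, and SLC34A2 alone made up 3083 CPM of the HCC4006P2 sum, so that this list did not set its tissue apart. Pancreas markers (681 CPM in PancVB, 25.9 to 2042 CPM in cell lines of other tissues) and ovary markers (510 to 665 CPM in ovarian and 8.38 to 643 CPM in other cell lines) did not do so either. Markers of blood and endothelial cells summed to between 0.643 and 17.2 CPM. In bulk RNA, fewer cells that express a gene and less RNA per cell cannot be told apart.

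Changes were expressed as the log2 fold change of CPM + 1 between a resistant cell line and its parental cell line, and a size of at least 1, which is a 2-fold change, was called. Of the 100 combinations of 10 genes and 10 pairs, 15 were higher past 2-fold in the resistant cell line, 31 were lower, 40 lay within 2-fold, and 14 had 3 counts or fewer in both lines. The direction differed between pairs, in which parental cell line, tissue and drug cannot be told apart. In HCC827GR, 7 of the 10 genes were higher and 1 was lower, where 9.03% of 15401 genes with a mean of at least 1 CPM were higher and 6.86% lower. In HepG2S1 and in HepG2S3, 2 genes were higher and 5 lower, against 23.2% higher and 15.3% lower of all genes in HepG2S1 and 24.6% and 14.4% in HepG2S3. In PancB1Q and in PancB1V, none was higher and 5 were lower, where 5.43% of all genes were higher and 8.17% lower in PancB1Q and 7.74% and 6.52% in PancB1V. HCC4006ER had none higher and 4 lower (10.2% and 10.8% of all genes), and HCC4006GR had 2 in each direction (7.12% and 6.7%). In the ovarian cell lines, U10 had 1 gene higher and 2 lower (5.66% and 4.63% of all genes), U100 had 1 in each direction (5.75% and 1.65%), and IGROV-1/CDDP had none higher and 1 lower (4.78% and 6.35%). One of the lower genes in U10, ALDH1A2, had a mean under 1 CPM and is not among the 15401 genes, and it was not past 2-fold with library sizes scaled by the trimmed mean of M-values (TMM), at -0.96. With a pseudocount of 0.1 CPM the genes past 2-fold were 4 in U100 and 2 in IGROV-1/CDDP.

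**Figure D1:**
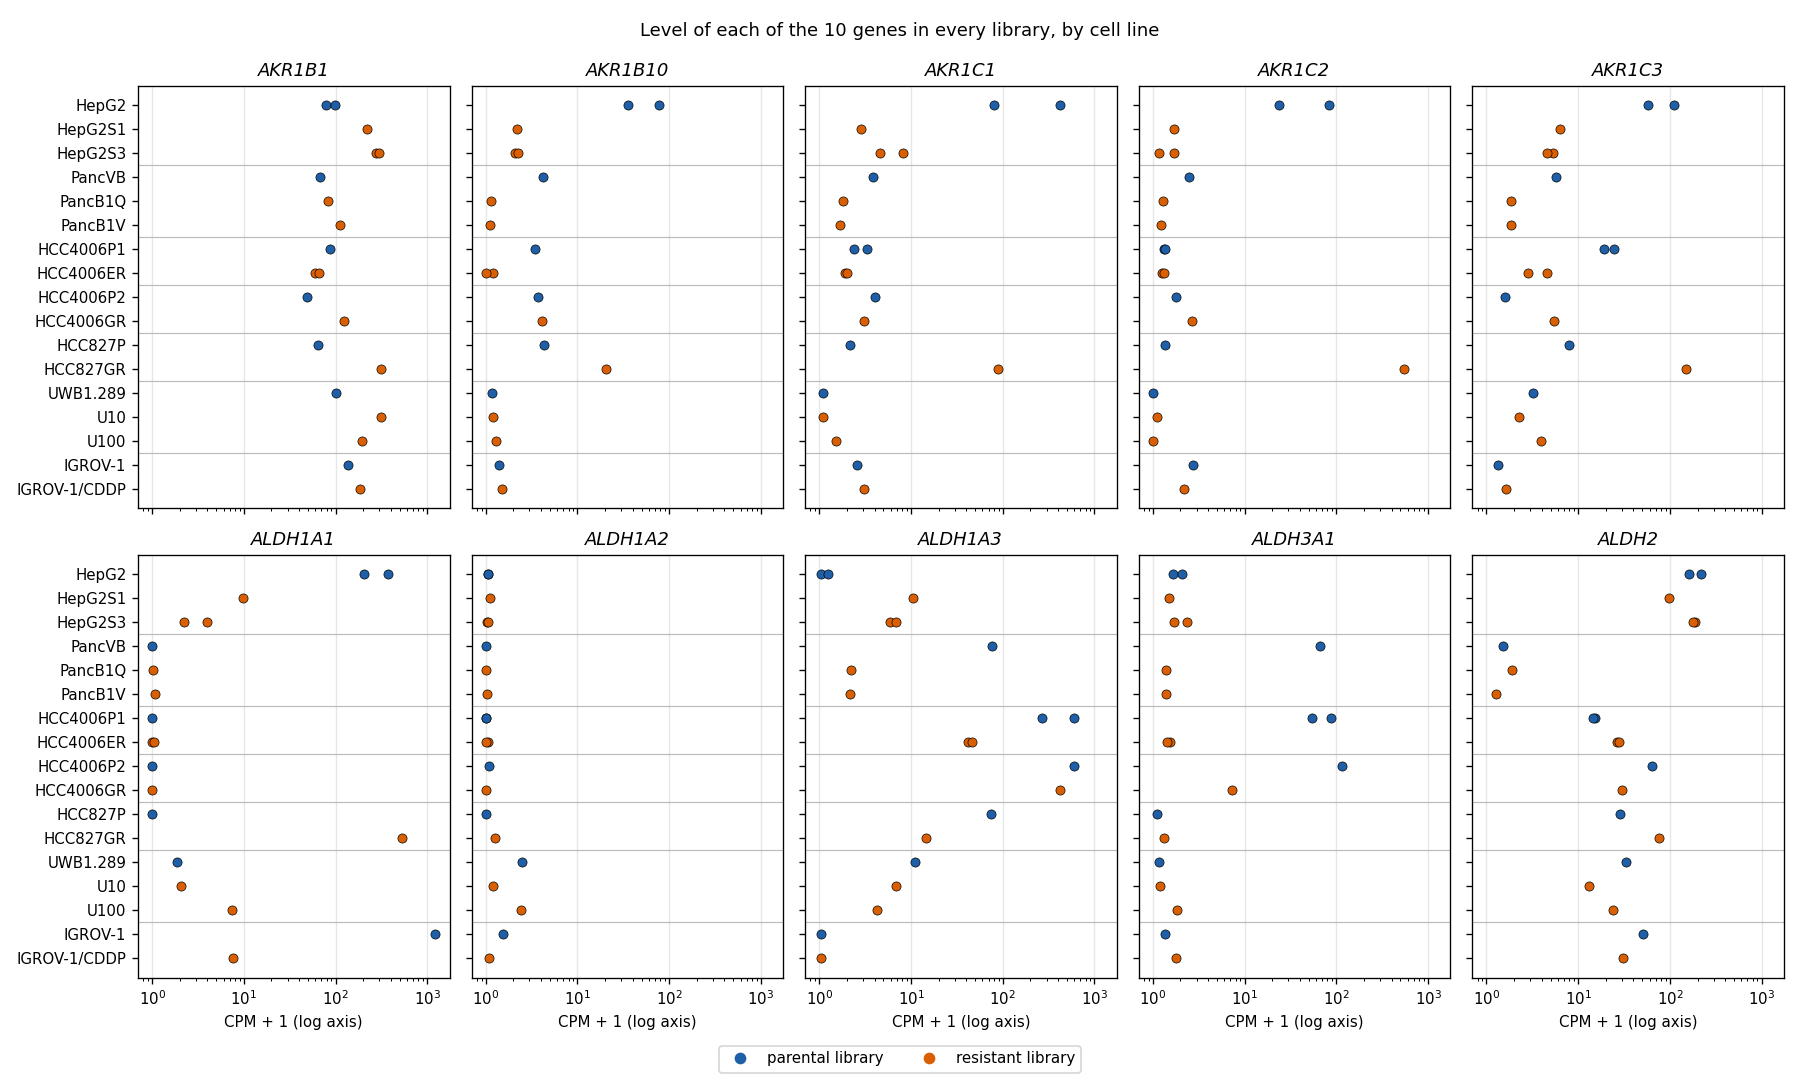
Level of each of the 10 genes in every library, as CPM + 1 on a log axis, with 1 row per cell line, blue points for parental and orange points for resistant libraries (HCC4006P1 replicate 1 is left out for AKR1B1, AKR1B10 and ALDH1A1). AKR1B1 sits at 47.8 CPM or more in every cell line, whereas AKR1C1, AKR1C2 and ALDH1A1 reach high levels in few cell lines.

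**Figure D2:**
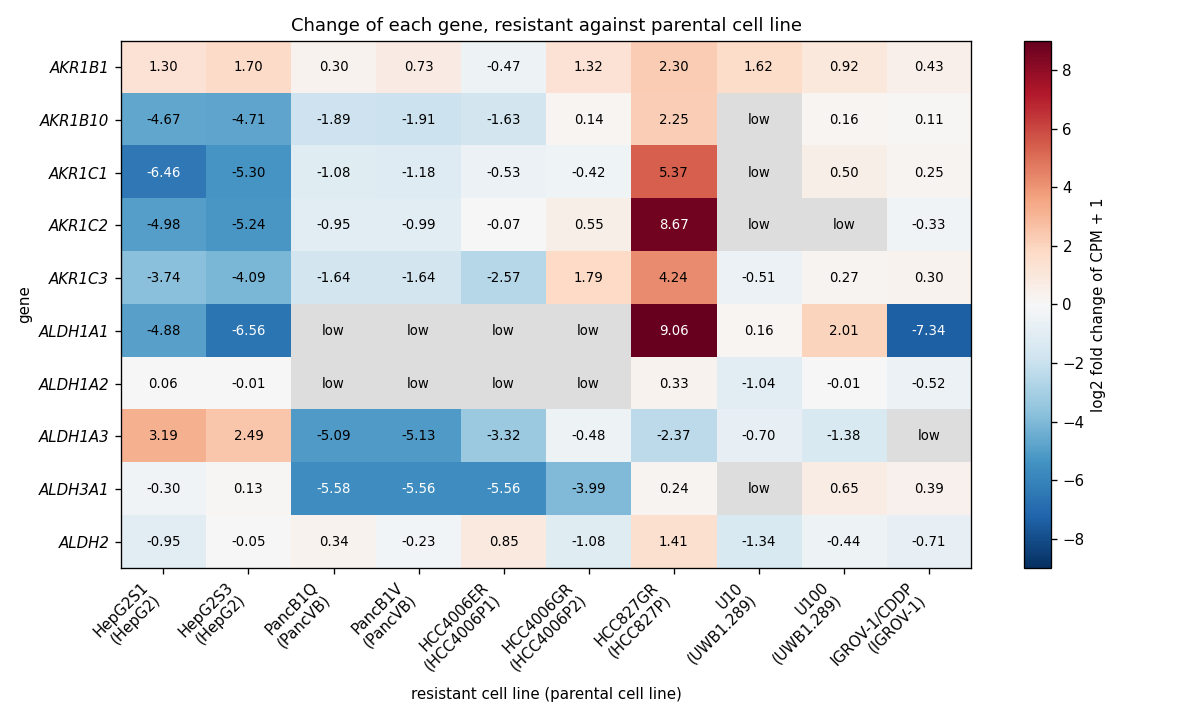
Log2 fold change of CPM + 1 of the 10 genes (rows) in each resistant cell line against its parental cell line (columns), with grey cells marked low where both lines had 3 counts or fewer. The HCC827GR column is mostly positive, with 9.06 for ALDH1A1 and 8.67 for AKR1C2, and the HepG2S1 and HepG2S3 columns are mostly negative.

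AKR1B1 encodes aldose reductase, which turns glucose into sorbitol and also reduces lipid aldehydes. Its gene (ENSG00000085662) lies on the minus strand at chr7:134127108-134144036 of GRCh37, next to AKR1B10 (ENSG00000198074) on the plus strand at chr7:134212319-134226164. AKR1B1 was the one gene of the 10 with at least 10 CPM in all 17 cell lines. Its level was 77.8 and 96.3 CPM in the HepG2 libraries, 216 CPM in HepG2S1, and 273 and 298 CPM in the HepG2S3 libraries. It was 66.2 CPM in PancVB, 81.6 CPM in PancB1Q and 111 CPM in PancB1V. It was 85.4 CPM in HCC4006P1, and 58.1 and 65.1 CPM in the HCC4006ER libraries. HCC4006ER was the one resistant cell line with a lower level than its parent. AKR1B1 was 47.8 CPM in HCC4006P2 and 121 CPM in HCC4006GR, and 63.3 CPM in HCC827P and 315 CPM in HCC827GR. It was 100.5 CPM in UWB1.289, 311 CPM in U10 and 191 CPM in U100. In the cisplatin pair it was 136 CPM in the parental and 184 CPM in the resistant cell line.

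AKR1B1 was therefore higher in 9 of 10 resistant cell lines, and past 2-fold in 5 (HepG2S1, HepG2S3, HCC4006GR, HCC827GR and U10). How many of all genes are higher in as many pairs was not counted, and pairs of 1 parent share its libraries. With TMM library sizes, its log2 fold change in HepG2S1 was 0.89 in place of 1.30 and no longer past 2-fold. The median of all genes was 0.19 in HepG2S1 and 0.20 in HepG2S3 on the same scale, and within 0.1 of 0 in the other pairs. The median log2 fold change of AKR1B1 over the 10 pairs was 1.11. Replicate libraries of HepG2 and of HCC4006P1 differed by 0.673 and 0.789 on the log2 scale at the 90th percentile of genes. The differences in PancB1Q (0.30), IGROV-1/CDDP (0.43) and HCC4006ER (-0.47) were smaller in size than both values. That in PancB1V (0.73) was smaller than 0.789. In the edgeR quasi-likelihood test AKR1B1 rose in HepG2S3 by a log2 fold change of 1.40 ± 0.153 (SE, adjusted p = 0.001), from 87.0 ± 13.1 CPM (SD, n = 2) to 286 ± 17.3 CPM. In HCC4006ER it fell by 0.65 on the log2 scale (SE 0.116, adjusted p = 7.19e-08, edgeR) in a fit with 1 parental library. That p-value rests on the spread between the HCC4006ER libraries alone, whose median gene differed by 0.0911 on the log2 scale, against 0.324 between the HCC4006P1 libraries, and is too small for that reason.

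**Figure D3:**
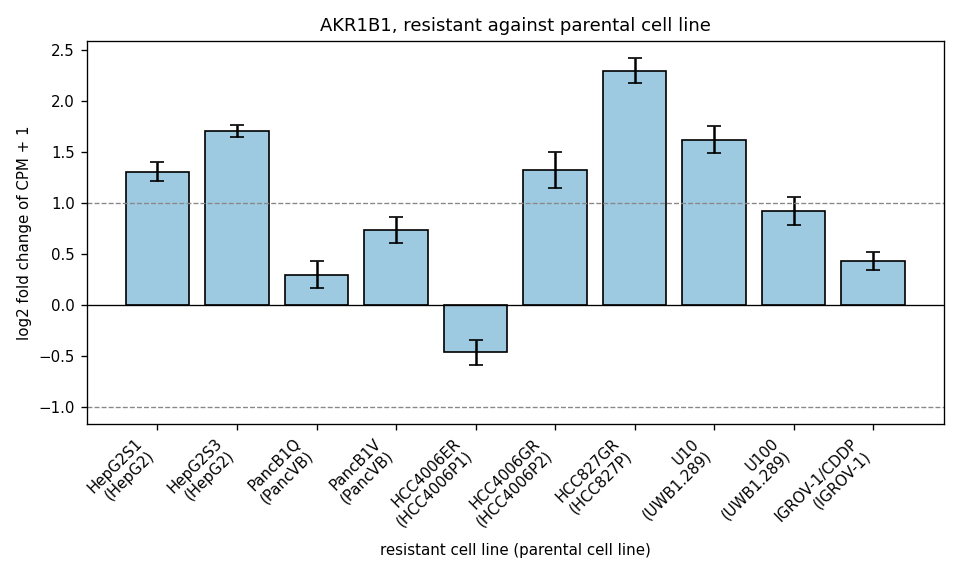
AKR1B1 in the 10 pairs, as bars of the log2 fold change of CPM + 1, with error bars for the 95% counting interval and dashed lines at a 2-fold change in either direction. Values run from -0.47 in HCC4006ER to 2.30 in HCC827GR, and 9 of 10 bars are above 0, a number not counted for all genes.

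AKR1B10 reduces retinal and aliphatic aldehydes and is a known target of the stress-response factor NRF2. It was 75.9 and 34.9 CPM in the HepG2 libraries, 1.22 CPM in HepG2S1, and 1.06 and 1.24 CPM in the HepG2S3 libraries. AKR1B10 fell in HepG2S3 by 5.90 on the log2 scale (SE 0.486, adjusted p = 0.000401, edgeR). In HCC827GR it was 19.6 CPM, against 3.35 CPM in HCC827P, a 5.86-fold difference. PancVB had 3.22 CPM from 70 counts, whereas PancB1Q had 4 counts and PancB1V 3. HCC4006P1 had 2.41 CPM from 47 counts, and the HCC4006ER libraries had 4 and 0 counts. The fall in HCC4006ER was called by edgeR (4.66 on the log2 scale, SE 0.600, adjusted p = 5.11e-14, with 1 parental library) but not by DESeq2 (adjusted p = 0.261). That edgeR p, as for AKR1B1, rests on the spread between the HCC4006ER libraries and is too small. The other 7 cell lines ranged from 0.172 to 3.11 CPM.

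AKR1C1, AKR1C2 and AKR1C3 encode hydroxysteroid dehydrogenases that act on progestins, androgens and prostaglandins and also reduce xenobiotic ketones. They lie in 1 cluster on chromosome 10. AKR1C1 (ENSG00000187134) is at chr10:5005445-5025475 on the plus strand, AKR1C2 (ENSG00000151632) at chr10:5029967-5060223 on the minus strand and AKR1C3 (ENSG00000196139) at chr10:5077546-5149878 on the plus strand of GRCh37. The genes are close copies of each other. Of the 50-base windows of the longest coding transcript, 47.3% in AKR1C2, 22.7% in AKR1C1 and 15.6% in AKR1C3 also occurred in a transcript of another gene. Reads from such windows align to more than 1 place, and such reads were left uncounted, so that the levels of these 3 genes are uncertain. They made up between 19.3% and 31.9% of the entries of a library, gene counts and uncounted rows together. Whether an entry is a read or 1 of its alignments is not given in the sources used here. The same figure was 17.3% for AKR1B10, shared mostly with AKR1B15, 4.95% for AKR1B1 and 9.54% for ALDH2.

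The copies extend into the promoters. Over the 250 bases before the transcription start, taken from RefSeq (GRCh38.p14), AKR1C1 and AKR1C2 were 96.5% identical in a global alignment, and AKR1C1 and AKR1C3 72.4% or 69.9%, depending on which of the 2 AKR1C3 starts was used. The parts outside annotated exons of AKR1C1 and AKR1C2, and the whole stretch of the second AKR1C3 start, are shown because these genes differed in the same direction in the HepG2 and the HCC827 pairs. They run 5′ to 3′ on the strand of the gene, with capitals for a CCAAT box in either orientation, which the outer stretches of AKR1C1 and AKR1C2 do not reach.
AKR1C1, chr10:5005357-5005444 (GRCh37, plus strand): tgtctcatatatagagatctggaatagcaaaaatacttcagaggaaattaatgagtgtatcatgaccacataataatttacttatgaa
AKR1C2, chr10:5046216-5046299 (GRCh37, minus strand): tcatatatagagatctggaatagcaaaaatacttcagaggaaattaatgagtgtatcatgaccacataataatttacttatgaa
AKR1C3, chr10:5136356-5136605 (GRCh37, plus strand): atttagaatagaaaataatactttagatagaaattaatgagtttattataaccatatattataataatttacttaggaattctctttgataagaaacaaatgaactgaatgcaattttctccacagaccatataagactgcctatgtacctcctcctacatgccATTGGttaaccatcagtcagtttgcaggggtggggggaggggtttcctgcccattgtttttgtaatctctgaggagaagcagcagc

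Nearer to the start lies that box, here with 12 bases on each side. AKR1C1 and AKR1C2 had the same bases there, and AKR1C3, shown for its second start, differed at some of them.
AKR1C1, chr10:5005518-5005546: ctctcacatgccATTGGttaaccagcaga
AKR1C2, chr10:5046114-5046142: ctctcacatgccATTGGttaaccagcaga
AKR1C3, chr10:5136508-5136536: ctcctacatgccATTGGttaaccatcagt

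In HepG2 the 3 genes were abundant and the 2 libraries differed. AKR1C1 was 415 and 80.0 CPM in the HepG2 libraries, 1.83 CPM in HepG2S1, and 7.09 and 3.56 CPM in the HepG2S3 libraries. AKR1C2 was 83.2 and 22.7 CPM in HepG2, 0.711 CPM in HepG2S1, and 0.687 and 0.163 CPM in HepG2S3. AKR1C3 was 110 and 56.6 CPM in HepG2, 5.28 CPM in HepG2S1, and 4.34 and 3.52 CPM in HepG2S3. In each of the 3 genes the lower HepG2 library stood above all 3 resistant libraries, and how many of all genes do so was not counted. All 3 genes fell in HepG2S3 (edgeR). The log2 fall was 5.86 for AKR1C1 (SE 0.953, adjusted p = 0.00384), 7.25 for AKR1C2 (SE 0.956, adjusted p = 0.00186) and 4.72 for AKR1C3 (SE 0.397, adjusted p = 0.000432). The size depended on the HepG2 library. Without HepG2 replicate 1, the edgeR log2 fold change was -4.21 for AKR1C1, -6.02 for AKR1C2 and -5.23 for AKR1B10, and without HepG2 replicate 2 it was -6.61 for AKR1C1 and -7.91 for AKR1C2. Liver markers summed to 29600 CPM in HepG2 and to 26.9 CPM or less in its resistant cell lines, and their part in the difference was not tested.

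In the HCC827 pair the direction was opposite. AKR1C2 was 0.346 CPM in HCC827P, from 6 counts, and 546 CPM in HCC827GR, from 8493 counts, a log2 fold change of 8.67 on the CPM + 1 scale with a counting interval from 8.25 to 8.91. AKR1C1 was 1.15 CPM in HCC827P and 87.9 CPM in HCC827GR, and AKR1C3 was 7.04 and 150 CPM. HCC827GR was the one resistant cell line of the 10 in which AKR1B10 and all 3 AKR1C genes were higher past 2-fold. The pair has 1 library on each side and was not tested. The 6 liver markers summed to 0.115 CPM in HCC827P and 4.63 CPM in HCC827GR, where 1 of them reached 1 CPM.

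In the other cell lines the 3 AKR1C genes were lower, and AKR1C3 in HCC4006P1 was the highest of them. It was 18.0 and 23.7 CPM in the HCC4006P1 libraries and 3.54 and 1.85 CPM in the HCC4006ER libraries, and fell by 2.94 on the log2 scale (SE 0.378, adjusted p = 0.00116, edgeR). In the other HCC4006 pair it was 0.588 CPM in HCC4006P2 and 4.50 CPM in HCC4006GR, from 8 and 68 counts. Between the 2 parental stocks of this lung line, AKR1C3 was thus 20.9 CPM on average in HCC4006P1 and 0.588 CPM in HCC4006P2. AKR1C1 in HCC4006ER did not pass the edgeR test, with a log2 fold change of -0.85 ± 0.314 (SE, adjusted p = 0.063), but did with the replicate number as a block (adjusted p = 0.0445, edgeR). In PancVB the AKR1C1, AKR1C2 and AKR1C3 levels were 2.81, 1.47 and 4.74 CPM. All 3 were lower in both derived lines, at 0.685 to 0.805 CPM for AKR1C1, 0.242 to 0.280 CPM for AKR1C2 and 0.840 to 0.846 CPM for AKR1C3. The AKR1C2 levels were 5.26-fold and 6.10-fold lower, but its log2 fold changes of CPM + 1 were -0.95 and -0.99, just under the 2-fold limit, and they were -2.05 and -2.20 with a pseudocount of 0.1 CPM. Ovarian cell lines held at most 2.90 CPM of any of the 3.

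The split of raw counts between the close copies AKR1C1 and AKR1C2 differed between cell lines. It was not corrected for length or shared windows. AKR1C1 had 6494 windows of 50 bases, 22.7% of them shared, and AKR1C2 had 3166, 47.3% of them shared. The split therefore does not give the ratio of the transcripts within a cell line. AKR1C1 made up 83.3% (95% Wilson interval 82.8% to 83.8%) and 77.9% (76.5% to 79.2%) of the summed AKR1C1 and AKR1C2 counts in the HepG2 libraries, and 91.2% (87.0% to 94.1%) and 95.6% (90.1% to 98.1%) in HepG2S3. It made up 13.9% (13.2% to 14.6%) in HCC827GR, where AKR1C2 had more counts, against 76.9% (58.0% to 89.0%) of 26 counts in HCC827P. In IGROV-1 it was 47.3% (37.3% to 57.4%) of 91 counts.

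**Figure D4:**
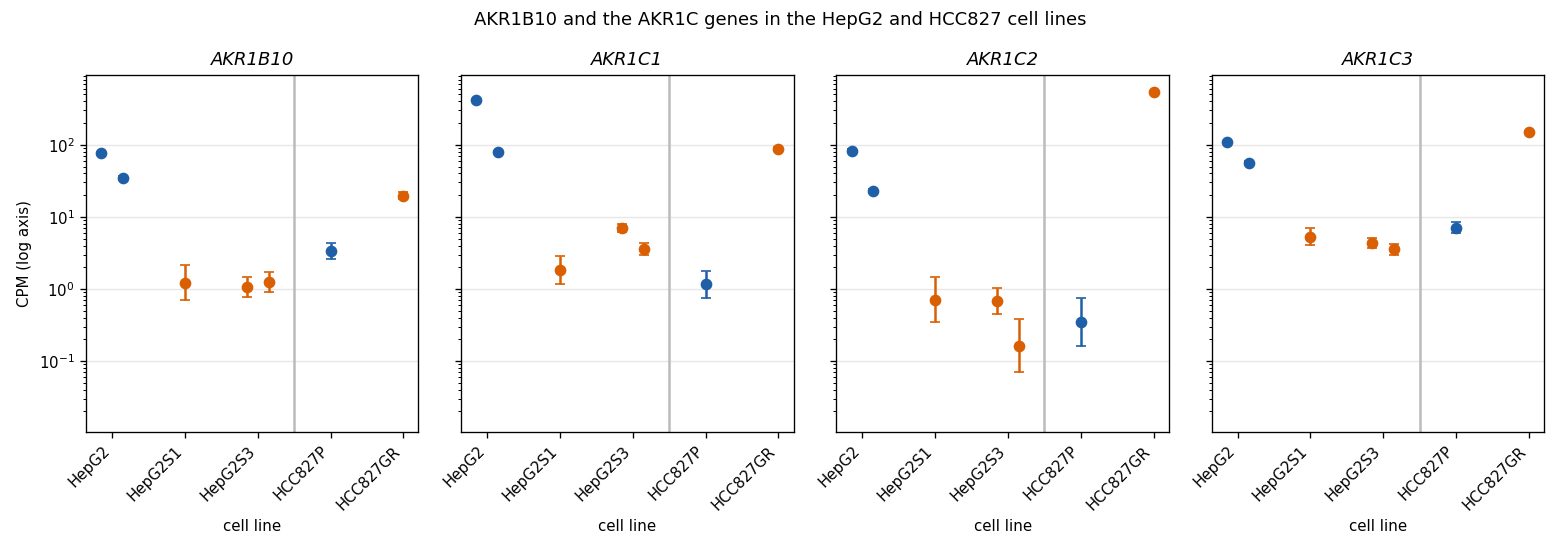
CPM on a log axis of AKR1B10, AKR1C1, AKR1C2 and AKR1C3 in each library of the HepG2 and HCC827 cell lines, blue for parental and orange for resistant libraries, with bars for the 95% Wilson counting interval. Left of the divide, both HepG2 libraries lie above the HepG2S1 and HepG2S3 libraries for all 4 genes, and right of it HCC827GR lies above HCC827P.

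ALDH1A1, ALDH1A2 and ALDH1A3 are the retinal dehydrogenases, which make retinoic acid, and ALDH1A1 and ALDH1A3 underlie much of the dye-based activity used to sort stem-like cells. ALDH1A1 (ENSG00000165092) lies at chr9:75515587-75695358 on the minus strand of GRCh37. It was above 100 CPM in 3 of the 17 cell lines and under 10 CPM in the others. It was 374 and 204 CPM in the HepG2 libraries, 8.83 CPM in HepG2S1, and 2.94 and 1.21 CPM in the HepG2S3 libraries, and fell in HepG2S3 by 7.43 on the log2 scale (SE 0.587, adjusted p = 0.000352, edgeR). In IGROV-1 it was 1221 CPM, from 33569 counts, the highest value of any of the 10 genes, and 6.57 CPM in IGROV-1/CDDP, a 186-fold difference. HCC827P had 0 counts, and HCC827GR had 532 CPM from 8269 counts. That level was 3073-fold above 0.173 CPM, the floor of 3 counts in the HCC827P library. The Wilson counting interval of the HCC827P library reached 0.222 CPM, so that 3073-fold is not a lower bound. U100 had 6.48 CPM against 0.860 CPM in UWB1.289, from 85 and 10 counts, and U10 had 1.07 CPM. PancVB, HCC4006P1 and HCC4006P2 and their derived cell lines had 0 to 2 counts, and no fold was computed there. The 247 bases before its start that lie outside exons are shown because ALDH1A1 had the widest range of the 10 genes, with capitals for the CCAAT box.
ALDH1A1, chr9:75567973-75568219 (GRCh37, minus strand): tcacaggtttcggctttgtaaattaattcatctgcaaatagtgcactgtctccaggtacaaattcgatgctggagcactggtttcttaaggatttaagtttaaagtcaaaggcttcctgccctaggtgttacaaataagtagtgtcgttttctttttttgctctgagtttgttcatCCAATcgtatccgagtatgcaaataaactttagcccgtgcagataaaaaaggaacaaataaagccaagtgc

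ALDH1A2 (ENSG00000128918, minus strand, chr15:58245622-58790065) did not reach 1.5 CPM in any cell line and was the one gene of the 10 with a mean under 1 CPM. Its highest level was 1.46 CPM in UWB1.289, from 17 counts, with 0.195 CPM in U10, from 2 counts, and 1.45 CPM in U100. IGROV-1 had 15 counts and IGROV-1/CDDP 2, and the other cell lines had at most 4 counts in all.

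ALDH1A3 (ENSG00000184254, plus strand, chr15:101417919-101456831) was higher than ALDH1A1 per length in all parental lung and pancreas lines. It was 604 and 268 CPM in the HCC4006P1 libraries, and 40.4 and 45.4 CPM in the HCC4006ER libraries. ALDH1A3 fell in HCC4006ER by 3.24 on the log2 scale (SE 0.277, adjusted p = 0.000207, edgeR). On the CPM + 1 scale its log2 fold change was -3.32, and -2.62 without HCC4006P1 replicate 1. It was 591 CPM in HCC4006P2 and 424 CPM in HCC4006GR, within 2-fold. It was 74.9 CPM in PancVB but 1.23 CPM in PancB1Q and 1.17 CPM in PancB1V, 61.2-fold and 64.2-fold lower. It was 73.5 CPM in HCC827P and 13.4 CPM in HCC827GR, where it was the one gene of the 10 that was lower past 2-fold. UWB1.289 had 10.2 CPM, U10 5.85 CPM and U100 3.28 CPM, and IGROV-1 and its derived line had 1 count each. HepG2 was the exception in direction. ALDH1A3 was 0.0546 and 0.230 CPM in the HepG2 libraries, from 2 and 8 counts, 9.44 CPM in HepG2S1, and 4.97 and 5.87 CPM in the HepG2S3 libraries. It rose in HepG2S3 by a log2 fold change of 4.92 ± 0.527 (SE, adjusted p = 0.000929, edgeR), which was 4.23 without HepG2 replicate 1 and 6.22 without HepG2 replicate 2. The antisense gene ALDH1A3-AS1 overlaps 32.2% of the exon bases of ALDH1A3, and whether counting used strand is not given in the sources used here, so that reads of the 2 genes may not be separated. Its start lies in a stretch of 82.4% GC with 38 CpG in 250 bases, against medians of 58% and 11 CpG over 35116 RefSeq promoters. The 232 bases outside exons are shown for that contrast with ALDH1A1, whose stretch had 38.4% GC and 6 CpG.
ALDH1A3, chr15:101419786-101420017 (GRCh37, plus strand): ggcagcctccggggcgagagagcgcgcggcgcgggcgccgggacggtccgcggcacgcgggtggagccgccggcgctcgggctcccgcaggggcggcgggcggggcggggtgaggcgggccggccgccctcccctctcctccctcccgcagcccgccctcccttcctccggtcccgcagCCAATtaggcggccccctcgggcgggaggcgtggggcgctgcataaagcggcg

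In each of HepG2S1, HepG2S3 and HCC827GR, and in U100, ALDH1A1 and ALDH1A3 differed past 2-fold in opposite directions.

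ALDH3A1 oxidises aromatic and medium-chain aldehydes, including those of cyclophosphamide metabolites, and is known for its abundance in cornea and airway. Its gene (ENSG00000108602) lies on the minus strand at chr17:19641297-19652256. It was high in 3 of the 7 parental cell lines and lower in all 4 resistant cell lines made from them. It was 65.3 CPM in PancVB, 0.385 CPM in PancB1Q and 0.403 CPM in PancB1V. It was 85.4 and 52.9 CPM in the HCC4006P1 libraries and 0.557 and 0.411 CPM in the HCC4006ER libraries. In HCC4006P2 it was 114 CPM, and 6.22 CPM in HCC4006GR, an 18.3-fold difference. ALDH3A1 fell in HCC4006ER by 7.06 on the log2 scale (SE 0.249, adjusted p = 1.04e-05, edgeR). In the other 10 cell lines it was between 0.115 and 1.03 CPM. KRT19, a keratin of epithelial cells, was 1723 CPM in HCC4006P1 and 2.11 CPM in HCC4006ER, and 677 CPM in PancVB and 82.0 and 28.6 CPM in PancB1Q and PancB1V. In HCC4006P2 and HCC4006GR it was 992 and 778 CPM. It was also lower in HepG2S1 and HepG2S3 (102 and 164 CPM) than in HepG2 (347 CPM), where ALDH1A3 was higher in the resistant cell lines. KRT19 fell from 708 to 212 CPM in HCC827GR, and from 230 CPM to 94.5 and 116 CPM in U10 and U100. It rose from 89.2 to 373 CPM in IGROV-1/CDDP. MUC1, like KRT19 of the pancreas marker list, had log2 fold changes of 6.92 in HepG2S1, 4.56 in HepG2S3 and -3.70 in HCC4006ER. KRT19 was picked outside the rule for naming list genes. Its part, and that of other epithelial genes, in the ALDH3A1 and ALDH1A3 differences was not tested.

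ALDH2 is the mitochondrial enzyme that oxidises acetaldehyde from alcohol. Its gene (ENSG00000111275) lies on the plus strand at chr12:112204691-112255336. Its log2 fold change lay between -1.34 and 1.41 over the 10 pairs. It was 160 and 218 CPM in the HepG2 libraries, 97.1 CPM in HepG2S1, and 189 and 176 CPM in the HepG2S3 libraries. The HepG2S3 values lay between the HepG2 values, and ALDH2 did not pass the edgeR test (log2 fold change -0.37 ± 0.181, adjusted p = 0.131), although it did without HepG2 replicate 1 (-0.57). In HCC4006ER it rose by a log2 fold change of 0.94 ± 0.163 (SE, adjusted p = 0.00403, edgeR), from 14.4 and 13.6 CPM to 25.3 and 26.7 CPM. It was 63.0 CPM in HCC4006P2 and 29.3 CPM in HCC4006GR. In HCC827P it was 27.7 CPM, and 75.4 CPM in HCC827GR. It was 31.8 CPM in UWB1.289, 11.99 CPM in U10 and 23.3 CPM in U100. The cisplatin pair had 50.1 CPM in the parental and 30.2 CPM in the resistant cell line. PancVB, PancB1Q and PancB1V held between 0.282 and 0.910 CPM, the lowest levels of ALDH2 among the 17 cell lines.

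**Figure D5:**
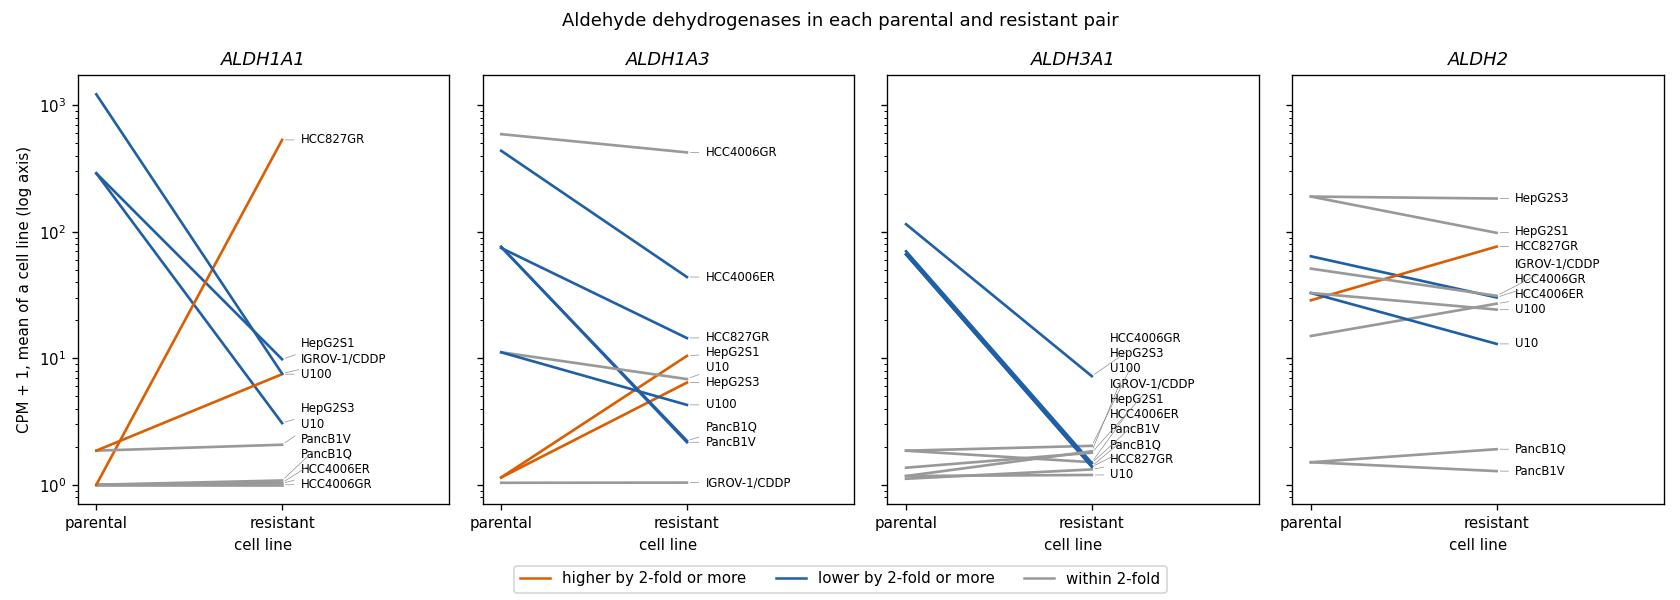
Mean level of each parental cell line joined to that of its resistant cell line, as CPM + 1 on a log axis, for ALDH1A1, ALDH1A3, ALDH3A1 and ALDH2, with orange lines for 2-fold or more higher, blue for 2-fold or more lower and grey for smaller differences or counts under the floor. ALDH3A1 is lower in 4 resistant cell lines, at 0.385 to 6.22 CPM, and ALDH1A1 goes from 0 to 532 CPM in HCC827GR and from 1221 to 6.57 CPM in IGROV-1/CDDP.

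Levels of different genes were compared per kilobase of exon. The methods name both a whole-transcript kit and a 3′ end kit without saying which library had which, so that this scale may not hold for all libraries. On this scale ALDH1A1 led in HepG2 (102 CPM per kilobase), HCC827GR (187) and IGROV-1 (430), and ALDH1A3 led in HCC4006P1 (81.8), HCC4006P2 (111) and HCC4006GR (79.4). AKR1B1 led in the other 11 cell lines. In IGROV-1/CDDP the lead passed from ALDH1A1 to AKR1B1 at 50.3 CPM per kilobase, and in HCC827GR from AKR1B1 (17.3 in HCC827P) to ALDH1A1. The summed level of the 10 genes was 37.8 CPM per kilobase in HCC827P and 433 in HCC827GR, and it was 56.9 in IGROV-1/CDDP against 473 in its parent.

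Promoter stretches of 250 bases were at hand for 7 of the 10 genes, with 10 start sites. A CCAAT box (CCAAT on either strand) occurred in at least 1 start site of each of the 7 genes, between 62 and 98 bases before the start, and in 8 of the 10 start sites, against 32.0% of 35116 promoters of the same length. The core of the antioxidant response element, through which NRF2 acts (TGACNNNGC, either strand), was in none of the 10 stretches and in 10.9% of all promoters. The AP-1 site TGANTCA was in none and in 6.57% of all. These letters may lie outside the 250 bases. For AKR1B1, AKR1C1, AKR1C2 and ALDH1A2 the CCAAT box lay within an annotated exon, so that another annotated start lies upstream of it. The AKR1C stretches are close copies of each other, so that the start sites are not independent and the share is a description only.

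In the edgeR fits, 9 of the 10 genes passed the filter on low counts in HepG2S3 against HepG2. Of these, 2 rose and 5 fell, where 31.4% of 16929 genes rose and 32.1% fell, and their median log2 fold change was -4.72, against -0.01 over all genes. In HCC4006ER against HCC4006P1, on genes outside the stretch without counts, 5 passed the filter, 1 rose and 3 fell, where 24.1% of 12791 genes rose and 24.9% fell, with medians of -2.94 and 0.01. In the fit with 1 parental library, which served for AKR1B1, AKR1B10 and ALDH1A1, 30.8% of 16597 genes rose and 31.2% fell. AKR1B1 and AKR1B10 were called lower there, and ALDH1A1 was not tested. Over the 7 parental cell lines, with resistant lines of 1 parent summed, edgeR called 0 of 19829 genes (0%) in either direction, with 920 genes at an unadjusted p under 0.05, and DESeq2 called 102. None of the members was called by edgeR or passed adjustment, and AKR1B1 had a log2 fold change of 0.98 ± 0.312 (SE, adjusted p = 0.995, edgeR). The change of AKR1B1 was above 0 for 6 of the 7 parents, and how many of all genes do so was not counted.

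The change in HCC4006ER was set against that in HepG2S3 in an interaction test (edgeR). Of 6 genes tested, 4 had a higher log2 fold change in HCC4006ER and 2 a lower one, where 27.7% of 14478 genes were higher and 28.2% lower. AKR1B1, AKR1B10 and ALDH1A1 were tested without HCC4006P1 replicate 1, where 24.3% of 19770 genes were higher and 24.2% lower, and of the 3 AKR1B1 was called, with a lower value in HCC4006ER.

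Related genes were counted in the same fits. For this and the later lists, the shares of all genes tested were 31.4% up and 32.1% down in HepG2S3. In HCC4006ER they were 24.1% up and 24.9% down. Of 8 other aldo-keto reductases, 5 were tested in HepG2S3, where 0 rose and 3 fell, and 3 in HCC4006ER, where 0 rose and 1 fell. On the CPM + 1 scale, those with a mean of at least 1 CPM stayed within 2-fold in all 10 pairs. AKR1A1 in HepG2S1 was at the limit, with -0.996, from 69.8 CPM in HepG2 to 34.5 CPM. AKR1D1, the steroid 5-beta-reductase of liver, is under that mean and was named after its values were seen. It was 10.4 CPM in HepG2 and lower in HepG2S1 and HepG2S3, by log2 fold changes of -3.25 and -3.17. AKR7A2, an aflatoxin aldehyde reductase, ranged from -0.25 in PancB1V to 0.32 in HepG2S3. Of 14 other aldehyde dehydrogenases, 3 rose and 5 fell among 13 tested in HepG2S3, and 5 rose and 3 fell among 12 in HCC4006ER. ALDH3A2, which oxidises fatty aldehydes, had the largest mean change of that list, -1.16 ± 0.936 (SD, n = 7 parental cell lines), and was lower in 6 of the 7. ALDH3B1 was higher in HepG2S1, HepG2S3 and HCC4006ER, by log2 fold changes of 3.87, 4.35 and 1.11, and lower in U10 (-1.91) and U100 (-1.24).

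NRF2 is a transcription factor that induces several of these reductases. Of 22 target genes measured, 7 rose and 11 fell in HepG2S3 (median -0.43), and in HCC4006ER 0 of 18 rose and 13 fell (median -0.87). SLC7A11, the cystine transporter, had a log2 fold change of -3.73 in HCC4006ER. GPX2, a glutathione peroxidase, had -7.92 in HepG2S3 and -7.90 in HepG2S1. In HCC827GR, where the 4 reductases were higher, 4 of the 22 NRF2 targets were higher and 1 lower past 2-fold (9.03% and 6.86% of all genes), with a median of 0.27 against 0.03 for all genes. The 4, named after their values were seen, were HMOX1 (1.89), FTH1 (1.77), FTL (1.65) and ABCC3 (1.03), and the 1 lower was TXNRD1 (-1.13). Within 2-fold, GPX2 and SLC7A11 had 0.20 and -0.88, and NQO1, GCLC and GCLM had 0.27, 0.27 and -0.06. Of the retinoic acid list, 3 rose and 10 fell among 15 tested in HepG2S3, and 3 rose and 5 fell among 12 in HCC4006ER. CYP26B1, which degrades retinoic acid, had log2 fold changes of 2.63 in HepG2S1, 2.56 in HepG2S3 and 2.82 in HCC4006GR. TGM2, a transglutaminase induced by retinoic acid, had -6.03 in HCC4006ER and 2.48 in HCC4006GR. Of the steroid and prostaglandin partners of the AKR1C enzymes, 4 rose and 2 fell among 7 tested in HepG2S3, and 0 of 4 were called in HCC4006ER by edgeR, with 0 at an unadjusted p under 0.05. SRD5A1, the steroid reductase that makes dihydrotestosterone, had 2.73 in HepG2S1 and 2.70 in HepG2S3. HSD17B2, which inactivates estradiol and testosterone, had -5.58 and -5.49 there. PTGS2, the inducible cyclooxygenase, had 4.10 and 2.81 there, 1.52 in HCC4006GR and 2.20 in HCC827GR, but -2.34 in PancB1Q and -2.04 in PancB1V. Of the alcohol dehydrogenases, which supply aldehydes to this pathway, 1 rose and 2 fell among 3 tested in HepG2S3, and ADH4 and ADH6 had log2 fold changes of -5.38 and -5.16 there.

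Likeness of levels over the 17 cell lines was measured by Pearson's correlation of log2(CPM + 1), as a description only, since cell lines of 1 parent are not independent. Each like gene was picked for the highest value among genes with a mean of at least 1 CPM, so that its value is high by selection. Leaving out 2 cell lines does not undo that selection. AKR1B1 was most like BCL2 (r = 0.87), ALDH1A3 was most like GALNT10 (0.93) and ALDH2 most like CDIP1 (0.92), and these values were 0.84, 0.92 and 0.87 without the 2 cell lines farthest from the median. AKR1C1 was most like the liver gene CYP3A7 (0.95) and AKR1C2 most like GSTA1 (0.96), but without HepG2 and HCC827GR these were 0.21 and 0.45. Among the 10 genes, AKR1B10 with AKR1C1 had 0.93 and AKR1C1 with AKR1C2 0.90, which were 0.62 each without HepG2 and HCC827GR. AKR1C3 had 0.82 with AKR1C1 and 0.81 with AKR1C2, which were 0.21 and -0.12 without those 2 cell lines.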

How the data were processed

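RNA libraries were made with a stranded mRNA kit per the labels, and with that kit or a 3′ end kit per the study's methods. The submitters' processing notes name Bowtie, TopHat, SAMtools, HTSeq and hg19, and the methods add STAR; versions are not given in the sources used here. The authors deposited counts of reads per gene as whole numbers, without normalization. Rows that name no gene (no feature 5.24% to 14.0% of all entries, ambiguous 2.41% to 3.29%) were left out of totals.

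CPM used the total on genes. Lines with 2 libraries got their mean CPM, and log2 fold changes used a pseudocount of 1 CPM, which understates changes of low genes. Intervals are 95% Wilson intervals whose width reflects counting error alone, and duplicates made by PCR are not separate molecules. Tests used edgeR 4.0.16 (R 4.3.3; quasi-likelihood, TMM, filterByExpr, Benjamini-Hochberg over all genes tested, threshold 0.05) without replicate blocks, except the fit over 7 parental cell lines, which had the parental cell line as a block. The fits were tested on simulated data. Alternatives used DESeq2 1.42.0, other size factors, filters and pseudocounts, and libraries left out. Of the 53515 genes, 45100 were matched to GENCODE on GRCh37. Promoters were placed on GRCh37 by exact match, and motifs and alignments used Python 3.11.15 and Biopython.

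All 10 genes are named, with at most 3 genes of each related list by mean change over the parental cell lines, and genes whose levels were most like those of a member. Tissue markers, AKR1D1 and some NRF2 target genes were named outside this rule. The members and lists were chosen with earlier results of these data known. Replicate numbers follow the letters in the cell line labels; titles number both HepG2 libraries alike, so that pairing is unsure. The correlation of same-numbered deviations was 0.0466 for HepG2 with HepG2S3 and 0.410 for HCC4006P1 with HCC4006ER.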

Additional observations from a re-analysis of the deposited data

Results flagged for a closer look

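The change in HCC4006ER and the change in HepG2S3 were compared in an interaction test (edgeR), in which 27.7% of 14478 genes were called higher and 28.2% lower in HCC4006ER, and all 6 of the 10 genes that were tested there differed. Differences are the log2 fold change in HCC4006ER minus that in HepG2S3. ALDH1A3 had the largest size, -8.18 ± 0.554 (SE, adjusted p = 4.47e-06), falling in HCC4006ER and rising in HepG2S3. ALDH3A1 had -7.05 ± 0.532 (adjusted p = 8.48e-06), with a fall in HCC4006ER and a HepG2S3 change of -0.04 that was not called. HepG2 held 0.858 CPM of ALDH3A1, so that a fall of the HCC4006ER size could not be seen from there. AKR1C2 had 6.98 ± 1.75 (adjusted p = 0.00842), AKR1C1 4.96 ± 1.24 (adjusted p = 0.00842) and AKR1C3 1.74 ± 0.576 (adjusted p = 0.0296). Of these, AKR1C3 fell in both, by more in HepG2S3. AKR1C1 and AKR1C2 fell in HepG2S3 but were not called in HCC4006ER without a replicate block. HCC4006P1 held 1.84 CPM of AKR1C1 and 0.340 CPM of AKR1C2, so that falls of the HepG2S3 size could not be seen from there. ALDH2 had 1.28 ± 0.261 (adjusted p = 0.00298). In the fit without HCC4006P1 replicate 1, where 24.3% of 19770 genes were called higher and 24.2% lower, AKR1B1 had -2.05 ± 0.228 (adjusted p = 0.000354), higher in HepG2S3 and lower in HCC4006ER. In that same fit AKR1C3 had 1.39 and was no longer called (adjusted p = 0.0937). AKR1B10 (1.22 ± 1.54, adjusted p = 0.563) was not called. The 2 comparisons differ in tissue and drug at once, and these cannot be told apart.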

How the results depend on the processing

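No called value changed sign under the alternatives run. Of the values of the 10 genes in the edgeR fits under alternatives, 272 kept their direction and side of the threshold, 4 newly passed it and 3 no longer did. With a pseudocount of 0.1 CPM the genes past 2-fold numbered 4 in U100 (2 with 1 CPM) and 2 in IGROV-1/CDDP (1 with 1 CPM), and with none 4 and 3. Without a filter on the mean level, the share of all genes past 2-fold was 0.696% to 10.6%. In HCC4006ER against HCC4006P1, edgeR called 6266 genes and 4 of the 10. With all genes and both HCC4006P1 libraries it called 3417 and 2, AKR1C3 (adjusted p = 0.0501) and ALDH2 (0.0529) being lost, and with all genes and without HCC4006P1 replicate 1 it called 10281 genes. Leaving out 1 library gave 4051 (HCC4006ER replicate 1) to 8370 genes. In the fit for the stretch without counts, DESeq2, chosen after seeing the data, called 6812 genes and 1 member in place of 10281 and 2, and in the interaction 2 members in place of 1, adding ALDH1A1 (adjusted p = 0.00484). With TMM sizes in the 10 pairs, AKR1B1 in HepG2S1, AKR1C1 in PancB1Q, ALDH2 in HCC4006GR and ALDH1A2 in U10 were no longer past 2-fold, and ALDH2 in HepG2S1 was. Over 7 parental cell lines DESeq2 called 102 genes and edgeR 0. The cause of these differences was not tested. Blocked on replicate number, the HepG2S3 test called 10561 genes in place of 10744 and the HCC4006ER test 7787 in place of 6266. The block added AKR1C1 in HCC4006ER (adjusted p = 0.0445) and changed no other call of the 10 genes, and with 2 pairs the numbers do not establish a pairing. Counts of 3 or fewer limit 14 of the 100 combinations.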
